A study of Mus musculus with 10 samples.

Results

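The genes described here are 10 genes of the enteroendocrine cell, the hormone-secreting cell of the gut epithelium, in 10 mouse colon tumors. They are the peptide hormone genes Pyy, Gcg, Insl5, Nts and Sct, the granule protein genes Chga and Chgb, the transcription factor genes Neurod1 and Neurog3, and Cadps, which encodes a protein that prepares dense-core secretory granules for release. All but Cadps were taken by name as genes of the lineage. Cadps was selected on its FPKM values in these same tumors, by its large fall, so its difference between the groups is given as a description and was not tested. Of the 10 genes, 8 were among the 16875 gene names of the expression table, and Neurod1 and Neurog3 were not analysed here.

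The tumors had been raised in mice by azoxymethane and dextran sulfate sodium (AOM/DSS), a carcinogen followed by repeated chemical colitis, and were macrodissected from the colon for sequencing of messenger RNA. The 5 control tumors came from Wls flox/flox mice and the 5 Villin-Wls cKO tumors from mice with the same floxed allele and Villin-Cre ERT2, a tamoxifen-activated recombinase driven by a promoter of intestinal epithelial cells. Both groups carried the floxed allele and had received AOM/DSS, and tumors of Villin-Wls cKO mice were collected 30 days after tamoxifen. Wls encodes a protein that Wnt ligands need to leave the cell, so the comparison asks what changes in tumors whose epithelium no longer secretes Wnts. The background strain is C57BL/6, the study's methods give an age of 6 to 10 weeks at the start and a preference for females, and the labels do not say whether each tumor came from a separate mouse. If some did not, the p-values below measure the spread between tumors only.

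Enteroendocrine cells are scattered singly among the other cells of the epithelium and release peptides and amines from granules when nutrients, microbial products or hormones reach them. They arise from the same crypt stem cells as goblet cells and absorptive cells, through a short pulse of Neurog3 followed by Neurod1 and other factors. In the mouse colon, L cells make Gcg, Pyy and Insl5, while enterochromaffin cells make serotonin through Tph1. Chga and Chgb, the chromogranins, are bulk proteins of the granule core and serve as general markers of the lineage. In bulk tumor RNA, fewer cells of a type and less RNA per cell cannot be told apart.

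The values are FPKM, fragment numbers scaled by transcript length and by library size, so levels may be compared between genes. Between tumors, the calls depend in part on the scaling, as described at the end. The sum of FPKM per tumor lay between 1207683 and 1533885 and the median gene between 11.3 and 12.2 FPKM. Read numbers were not given, so the depth behind a value is unknown and precision rests on the spread between 5 tumors. The targeted gene Wls averaged 72.9 ± 7.06 FPKM (SD, n = 5) in the controls and 6.37 ± 4.89 FPKM (SD, n = 5) after deletion (limma adjusted p = 0.000337). The groups also differed in sex, with Xist at 0.188 FPKM on average in control and 590.1 FPKM in Villin-Wls cKO tumors. The study describes tamoxifen for the Villin-Wls cKO mice and, unless otherwise indicated, controls without it. Genotype, sex and tamoxifen therefore cannot be told apart. Villin-Wls cKO tumors 2 and 3 stood apart from the others by the squamous keratin Krt5, at 469.5 and 669 FPKM against at most 0.315 FPKM in the other 8 tumors, and results are given without them where this matters. Tumors 2 and 3 also held the most Wls of their group, at 11.63 and 11.75 FPKM, against 2.03 to 3.61 FPKM in Villin-Wls cKO tumors 1, 4 and 5.

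The stretches before the transcription start of a lineage hormone gene, a lineage marker gene and Cadps are shown first, because the first pair of genes rose and fell together from tumor to tumor and Cadps did not follow them. Each is the 250 bases upstream of a RefSeq start on GRCm38.p6, 5′ to 3′ on the strand of the gene, and capitals mark CAGATG, an E-box (a site read by basic helix-loop-helix factors such as NEUROD1 and NEUROG3), on either strand (CATCTG when read on the other). The Gcg stretch is chr2:62483654-62483903 on the minus strand, that of Chga is chr12:102554691-102554940 on the plus strand, and that of Cadps is chr14:12823080-12823329 on the minus strand.
Gcg: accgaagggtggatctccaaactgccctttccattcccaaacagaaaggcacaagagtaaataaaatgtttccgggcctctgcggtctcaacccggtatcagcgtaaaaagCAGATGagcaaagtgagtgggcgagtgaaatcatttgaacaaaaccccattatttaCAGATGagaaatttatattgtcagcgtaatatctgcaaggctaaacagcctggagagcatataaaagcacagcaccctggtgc
Chga: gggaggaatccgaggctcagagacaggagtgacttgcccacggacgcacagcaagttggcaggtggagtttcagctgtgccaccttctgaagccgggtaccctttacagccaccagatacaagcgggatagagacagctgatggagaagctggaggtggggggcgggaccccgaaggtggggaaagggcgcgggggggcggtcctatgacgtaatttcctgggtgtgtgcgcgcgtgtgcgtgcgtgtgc
Cadps: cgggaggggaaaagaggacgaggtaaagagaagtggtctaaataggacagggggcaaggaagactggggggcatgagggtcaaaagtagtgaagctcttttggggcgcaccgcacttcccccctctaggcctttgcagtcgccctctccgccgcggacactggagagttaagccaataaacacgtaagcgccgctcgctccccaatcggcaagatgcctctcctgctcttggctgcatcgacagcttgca
The Gcg stretch holds the motif 2 times, starting 139 and 83 bases before the start, and those of Chga and Cadps do not hold these letters. All 10 genes were matched in the RefSeq table, with 12 promoters between them, and 3 promoters of 3 genes held the motif, those of Gcg, Sct and Insl5. In Sct it starts 242 bases and in Insl5 178 bases before the start. Of all 32851 promoters, 4745 (14.4%) held it in the same window. These matches describe the letters of this motif only and say nothing about binding, and other E-box sequences were not searched.

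In control tumors, Pyy was the most abundant of the 8 genes at 63.8 ± 52.7 FPKM (SD, n = 5), and Cadps came next at 20.3 ± 5.16 FPKM (SD, n = 5). Sct, Chgb, Insl5, Chga, Nts and Gcg followed between 5.04 and 1.69 FPKM on average. Of the 7 steps between neighbours in this order, the step from Cadps to Sct was the one whose ranges did not overlap. Pyy exceeded Cadps in 3 of the 5 control tumors. In Villin-Wls cKO tumors the order ran Pyy, Chgb, Sct, Insl5, Chga, Gcg, Nts and Cadps, and the step without overlap was now that from Nts, at 1.22 ± 0.755 FPKM (SD, n = 5), down to Cadps, at 0.137 ± 0.201 FPKM (SD, n = 5). Cadps thus moved from the second to the last place, which restates its selection by its fall, while Pyy was the highest on average in both groups.

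Of the 7 lineage genes other than Cadps, 0 passed an adjusted p under 0.05 between the groups in limma, and 1, Nts, had an unadjusted p under 0.05. Over all 16757 genes tested, 1822 passed (10.9%), 1026 higher (6.12%) and 796 lower (4.75%) in Villin-Wls cKO tumors, and 4308 (25.7%) had an unadjusted p under 0.05. Of the 7 genes, 5 had a higher and 2 a lower mean log2(FPKM + 1) in Villin-Wls cKO tumors, with a median difference of 0.32 (0.00734 over all genes). The 95% intervals of 6 of the 7 differences included 0, the exception being that of Nts. A difference here is the mean log2(FPKM + 1) of Villin-Wls cKO tumors less that of control tumors, which understates the change of genes at low levels.

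Pyy encodes peptide YY, an L-cell hormone that slows gut transit and reduces appetite. It lies on chromosome 11 from 102106676 to 102107832 (GRCm38, GENCODE M21). Control tumors 1 to 5 held 12.5, 75.0, 142, 16.8 and 72.8 FPKM, and Villin-Wls cKO tumors 1 to 5 held 24.4, 3.67, 55.3, 31.9 and 122 FPKM. The groups overlapped over most of their range, with control tumors 1 and 4 and Villin-Wls cKO tumor 2 at the bottom. The difference was -0.57 (standard error 0.90, 95% interval -2.55 to 1.42, limma adjusted p = 0.751), and it was 0.11 without Villin-Wls cKO tumor 2.

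Gcg encodes proglucagon, from which L cells cut GLP-1 and GLP-2. It lies on chromosome 2 from 62474530 to 62483650. Its values were 0.411, 1.65, 2.94, 0.0742 and 3.38 FPKM in control tumors 1 to 5, and 2.52, 0.155, 3.72, 4.91 and 11.6 FPKM in Villin-Wls cKO tumors 1 to 5. The lowest 3 tumors were again control 1, control 4 and Villin-Wls cKO 2, and Villin-Wls cKO tumor 5 was the highest of the 10. The difference was 0.87 (standard error 0.61, 95% interval -0.48 to 2.22, limma adjusted p = 0.413). It was 1.45 without Villin-Wls cKO tumors 2 and 3 (limma adjusted p = 0.171).

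Insl5, on chromosome 4 from 103017872 to 103026842, encodes a relaxin-family peptide of distal colon L cells. Control tumors 1 to 5 were at 0.444, 3.93, 9.15, 0.241 and 6.35 FPKM and Villin-Wls cKO tumors 1 to 5 at 3.26, 0.709, 3.65, 7.07 and 12.2 FPKM. The same 3 tumors lay below 1 FPKM while the remaining 7 lay above 3 FPKM. The difference was 0.49 (standard error 0.70, 95% interval -1.05 to 2.04, limma adjusted p = 0.719). It was 1.07 without Villin-Wls cKO tumors 2 and 3 (limma adjusted p = 0.448).

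Nts, on chromosome 10 from 102481756 to 102490486, encodes neurotensin, a peptide made by enteroendocrine N cells and neurons. It was at 1.35, 2.36, 2.62, 4.70 and 2.17 FPKM in control tumors 1 to 5, and at 0.987, 2.49, 1.21, 0.546 and 0.833 FPKM in Villin-Wls cKO tumors 1 to 5. Apart from Villin-Wls cKO tumor 2, every Villin-Wls cKO tumor was below every control tumor. The difference was -0.71 (standard error 0.26, 95% interval -1.30 to -0.13), with an unadjusted p = 0.021 in limma that became 0.115 after Benjamini-Hochberg adjustment. Without Villin-Wls cKO tumor 2 the difference was -0.89 and the limma adjusted p = 0.043. Without Villin-Wls cKO tumors 2 and 3 it was -0.97 and did not pass (limma adjusted p = 0.0634). The adjusted p lay between 0.043 and 0.217 over 20 other fits.

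Sct, on chromosome 7 from 141278330 to 141279133, encodes secretin. Its levels did not fall into the pattern of the L-cell genes. Control tumors 1 to 5 held 5.40, 7.21, 3.87, 2.64 and 6.09 FPKM and Villin-Wls cKO tumors 1 to 5 held 3.90, 9.22, 3.63, 2.90 and 7.52 FPKM. Villin-Wls cKO tumor 2, low for Pyy, Gcg and Insl5, was the highest of the 10 for Sct. The difference was 0.04 (standard error 0.31, 95% interval -0.63 to 0.72, limma adjusted p = 0.952), and its sign turned when single tumors were left out.

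Chga, on chromosome 12 from 102554969 to 102565028, and Chgb, on chromosome 2 from 132781278 to 132795079, encode chromogranin A and B. Chga was at 0.808, 5.32, 5.96, 0.930 and 5.81 FPKM in control tumors 1 to 5, and at 3.65, 0.964, 6.71, 3.82 and 8.49 FPKM in Villin-Wls cKO tumors 1 to 5. The values fell into 2 runs, with the 3 tumors named above below 1 FPKM and the remaining 7 above 3 FPKM, and both groups had tumors in both runs. The difference was 0.32 (standard error 0.53, 95% interval -0.85 to 1.50, limma adjusted p = 0.76). Chgb was at 0.793, 5.67, 10.1, 0.913 and 6.57 FPKM in control tumors 1 to 5 and at 6.49, 0.779, 10.6, 5.14 and 12.0 FPKM in Villin-Wls cKO tumors 1 to 5. Its low run held the same 3 tumors, and the difference was 0.54 (standard error 0.66, 95% interval -0.92 to 1.99, limma adjusted p = 0.667). Without Villin-Wls cKO tumors 2 and 3 the differences were 0.57 for Chga and 0.89 for Chgb (limma adjusted p = 0.596 and 0.46).

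**Figure D1:**
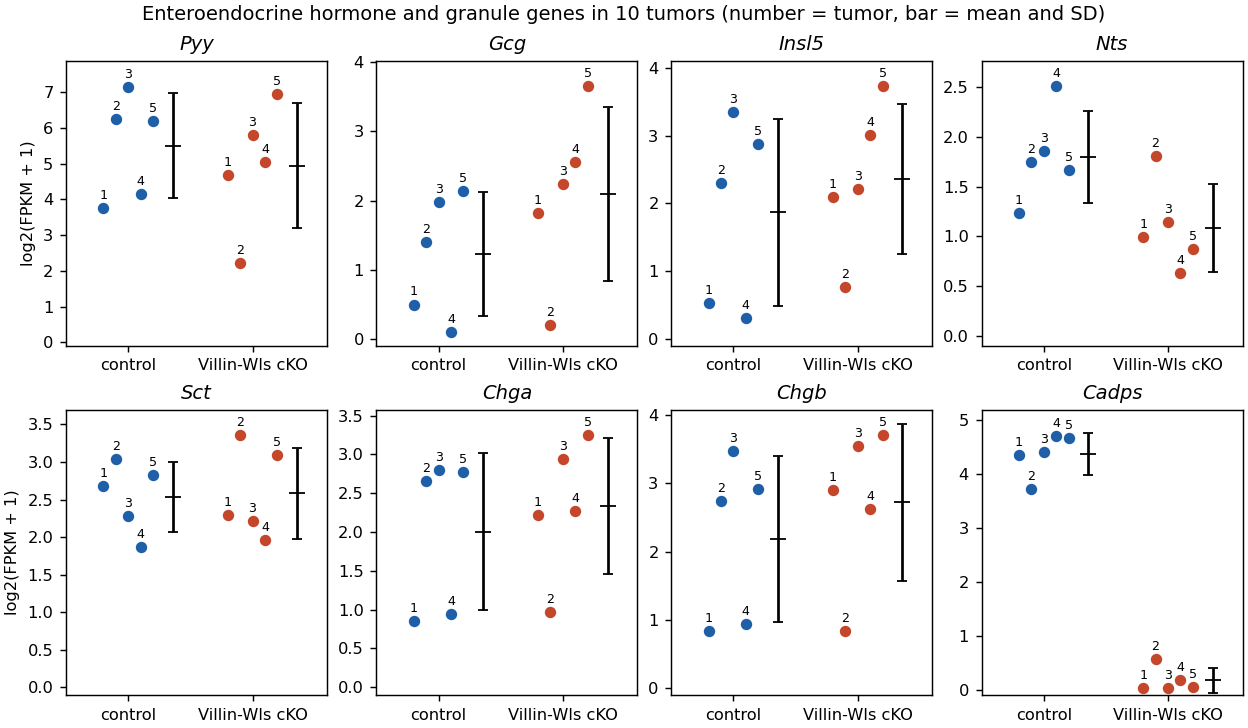
Level of the 8 enteroendocrine genes in each tumor, as log2(FPKM + 1), with control tumors in blue, Villin-Wls cKO tumors in red, the tumor number above each point, and the mean and SD of 5 tumors beside them. The groups overlap for every gene but Cadps, and control tumors 1 and 4 and Villin-Wls cKO tumor 2 are lowest for Pyy, Gcg, Insl5, Chga and Chgb.

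Cadps encodes CAPS1, a priming factor of dense-core granules that neurons and endocrine cells share. It lies on the minus strand of chromosome 14 from 12372563 to 12823079, a gene of 450517 bases overlapped by 6 non-coding or pseudogene entries, among them the antisense gene Gm48239. Control tumors 1 to 5 held 19.4, 12.3, 20.3, 25.3 and 24.4 FPKM, and Villin-Wls cKO tumors 1 to 5 held 0.0162, 0.487, 0.0194, 0.129 and 0.0338 FPKM. The lowest control tumor was above the highest Villin-Wls cKO tumor, and the mean of the control tumors was 148 times that of the Villin-Wls cKO tumors. The difference was -4.21 on the log2(FPKM + 1) scale and the log2 ratio of the mean FPKM was -7.21, the first being limited by the pseudocount of 1. Without Villin-Wls cKO tumors 2 and 3 the difference was -4.29. Groups did not overlap for 1690 of 16757 genes (10.1%), 893 of them higher (5.33%) and 797 lower (4.76%) in Villin-Wls cKO tumors, and nothing is read from Cadps being one of them, since it was selected on this contrast.

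Cadps did not track the chromogranins. Control tumors 1 and 4, lowest in Chga and Chgb among the controls, held 19.4 and 25.3 FPKM of Cadps, against 12.3 to 24.4 FPKM in the other 3 control tumors. Villin-Wls cKO tumors 3 and 5, the highest of all 10 tumors in Chga, held 0.0194 and 0.0338 FPKM. As FPKM ratios, Cadps to Chga was 24.0, 2.31, 3.41, 27.2 and 4.19 in control tumors 1 to 5 and 0.00443, 0.505, 0.00289, 0.0337 and 0.00398 in Villin-Wls cKO tumors 1 to 5. The ratio was above 2 in every control tumor and below 1 in every Villin-Wls cKO tumor. Since Cadps was selected by its fall between these groups, this separation restates the selection and nothing is read from it. Within its group, Villin-Wls cKO tumor 2 combined the highest Cadps with the lowest Chga.

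**Figure D2:**
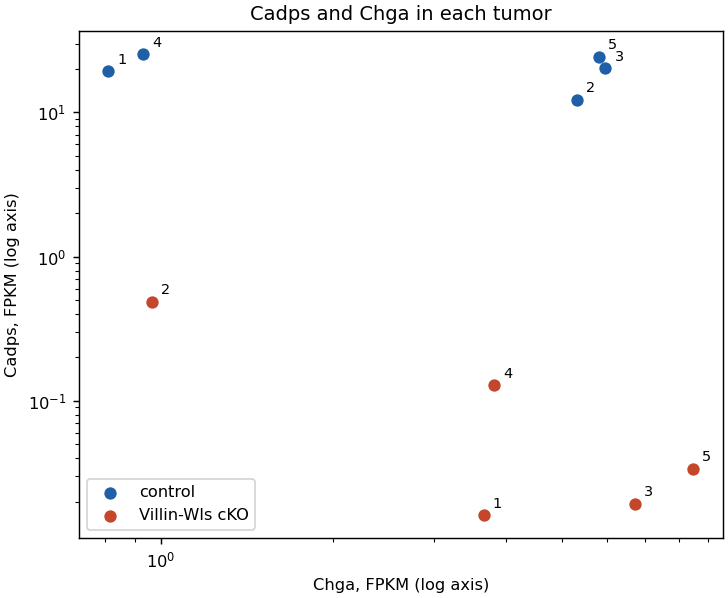
FPKM of Cadps against FPKM of Chga in each of 10 tumors, on log axes, with control tumors in blue and Villin-Wls cKO tumors in red and the tumor number beside each point. The groups separate along the Cadps axis, with 12.3 FPKM in the lowest control and 0.487 FPKM in the highest Villin-Wls cKO tumor, and both spread over the Chga axis. Cadps was selected by its fall in these same tumors, so the separation is a description only.

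Cadps2, a paralog of Cadps that is also known in granule priming, was at 10.9 ± 2.37 FPKM (SD, n = 5) in control and 13.1 ± 4.01 FPKM (SD, n = 5) in Villin-Wls cKO tumors. Control tumors 1 to 5 held 8.90, 14.5, 10.5, 8.88 and 12.0 FPKM, and Villin-Wls cKO tumors 1 to 5 held 13.5, 10.8, 16.6, 7.63 and 17.2 FPKM. The groups overlapped, and the difference was 0.21 (standard error 0.21, 95% interval -0.26 to 0.68, limma adjusted p = 0.589). In control tumors Cadps was thus the higher of the pair on average, and in every Villin-Wls cKO tumor it was the lower. This change of order restates the selection of Cadps by its fall. Of 32 annotated genes within 1000000 bases of Cadps, 7 of them protein-coding, 3 were in the table. The differences were 0.10 for Ptprg, a receptor tyrosine phosphatase gene, 0.11 for 3830406C13Rik and 0.22 for the processed pseudogene Gm5457, and none of these 3 passed the threshold (limma adjusted p = 0.637, 0.529 and 0.333).

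Tumor by tumor, most of the lineage genes moved together within both groups. The 3 tumors lowest in Chga were also the 3 lowest in Chgb, Pyy, Gcg and Insl5, that is for 5 of the 8 genes counting Chga itself, and not for Sct, Nts or Cadps. Over all 16757 genes, 336 (2.01%) had the same 3 lowest tumors. Of the 58 genes of the enteroendocrine lists described below, 9 did, the further ones being Tph1, the rate-limiting enzyme of serotonin synthesis in the gut, Ppy, which encodes pancreatic polypeptide, and the granule genes Resp18 and Rph3al. Tph1 was at 0.134 and 0.311 FPKM in control tumors 1 and 4 and at 0.543 FPKM in Villin-Wls cKO tumor 2, with the other 7 tumors between 1.16 and 1.74 FPKM. Of the goblet cell list, Fcgbp and Zg16 had the same 3 lowest tumors as well. This choice of tumors was made after the values were seen.

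With the group means removed, the genes most like Chga over the 10 tumors were Abca3 (Pearson r = 0.991 across tumors), Pkdcc (0.985), Chgb (0.982), Oit1 (0.978) and Adh1 (0.972), among 15352 genes ranked. Pyy ranked 7th (r = 0.970), Tph1 14th (0.964), Insl5 72nd (0.922) and Gcg 98th (0.910). For Sct the correlation with Chga was 0.0382, for Nts -0.376 and for Cadps -0.504. The points share their libraries, and since Chga fell into 2 runs these correlations mainly record which tumors were low, so they are a description without a test. The genes most like Cadps were Cenpn (0.930), Ggt7 (0.908), 2200002J24Rik (0.903), Dek (0.902) and Camsap1 (0.901), of which Cenpn encodes a centromere protein and Dek a chromatin protein, and no lineage gene was among them. The closest of the lineage genes to Cadps was Nts, at 0.489. Cadps was at 0.487 FPKM or less in every Villin-Wls cKO tumor. Control tumor 2, at 12.3 FPKM, and Villin-Wls cKO tumor 2, at 0.487 FPKM, lay farthest from their group means. The correlations of Cadps thus rest largely on those tumors and are likewise a description without a test.

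**Figure D3:**
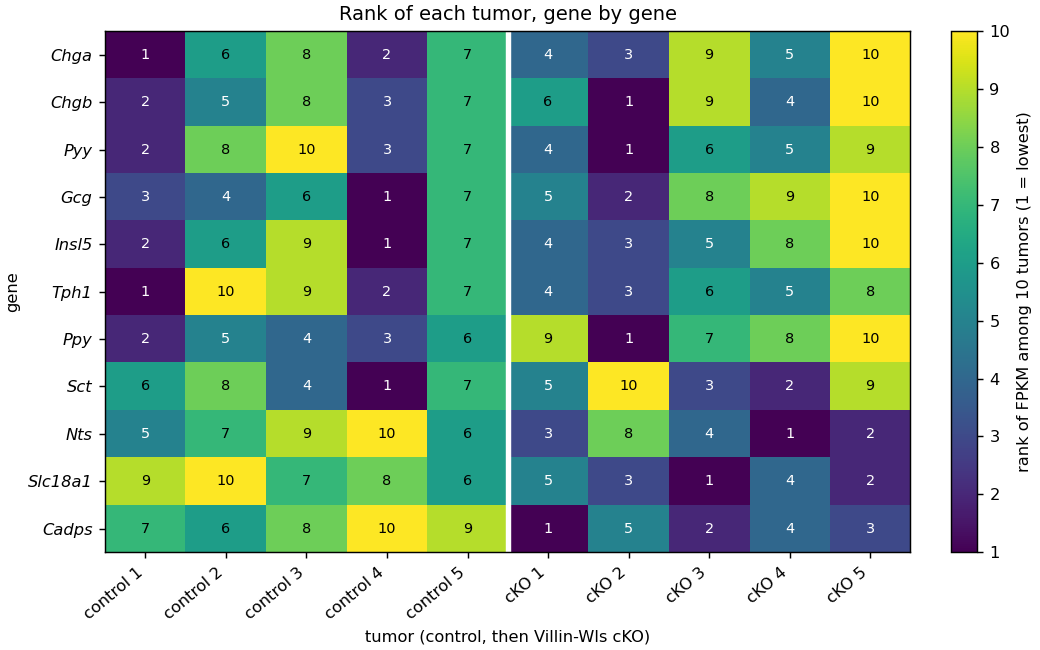
Rank of each tumor by FPKM, from 1 (lowest) to 10 (highest), for the 8 enteroendocrine genes and Tph1, Ppy and Slc18a1, with one row per gene and one column per tumor, control tumors left of the white line. Ranks 1 to 3 of the upper 7 genes fall to control tumors 1 and 4 and Villin-Wls cKO tumor 2, while for Cadps and Slc18a1 ranks 1 to 5 are the Villin-Wls cKO tumors.

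The other genes of the lineage were taken from 5 lists, of hormone and amine genes, lineage transcription factors, granule content and processing, granule exocytosis, and receptors and channels. Together, and without Cadps, 58 of their 109 genes were in the table and tested, 29 higher and 29 lower in Villin-Wls cKO tumors with a median difference of -0.03. The other 51 were not analysed here, and no name of the table stayed below 0.692 FPKM in all tumors, so these counts and medians describe genes that reached that level in at least 1 tumor. Of the 58, 6 were higher and 7 lower at an adjusted p under 0.05 in limma, 13 in all (22.4%, against 10.9% of all genes). An unadjusted p under 0.05 in limma was found for 26 of the 58, a larger share than the 25.7% of all genes. List by list, in the order above, the shares that passed were 7.14%, 20.0%, 44.4%, 23.8% and 25.0%. Without Villin-Wls cKO tumors 2 and 3, 8 listed genes passed, in a fit where 1101 of 16599 genes passed (6.63%). Lists such as these share genes with other cell types, and none of the 13 is a defining hormone of the L cell. The lists were also chosen with earlier results of these data known, so nothing is read from their share of called genes.

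Of the 14 hormone and amine genes in the table, which include 7 of the genes above, 10 were higher and 4 lower with a median difference of 0.24. Among the higher was Nmb, which carries the same values as Sec11a. Of the 14, 1 passed the threshold. This was Cck, the gene of cholecystokinin, a hormone of I cells and a neuropeptide. Control tumors 1 to 5 held 1.85, 2.00, 3.08, 3.17 and 3.74 FPKM and Villin-Wls cKO tumors 1 to 5 held 0.578, 0.448, 1.23, 0.928 and 1.11 FPKM, with no overlap between the groups. Cck fell by 1.01 on the log2(FPKM + 1) scale (standard error 0.18, limma adjusted p = 0.00623) and passed in all 20 other fits that tested it. Tac1, the gene of substance P, made by enterochromaffin cells and neurons, was at 6.21 FPKM in control and 30.2 FPKM in Villin-Wls cKO tumors on average, a difference of 1.90 (standard error 0.57, limma adjusted p = 0.0618), and its groups overlapped. It passed in 6 of 21 other fits, among them those without control tumor 3, Villin-Wls cKO tumor 1 or Villin-Wls cKO tumor 2 (limma adjusted p = 0.033, 0.0487 and 0.0363), and the adjusted p ranged from 0.0143 to 0.126. Tph1, at 1.12 and 1.24 FPKM, and Ppy, at 2.29 and 4.56 FPKM, had differences of 0.16 and 0.64 and did not pass (limma adjusted p = 0.795 and 0.408). Without Villin-Wls cKO tumors 2 and 3 the difference of Ppy was 1.125 (limma adjusted p = 0.0804).

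Of the transcription factor list, 10 of 27 genes were in the table, 3 higher and 7 lower with a median difference of -0.28, and 2 passed, both lower. Foxa2, a forkhead factor of endoderm that acts in enteroendocrine differentiation, fell from 26.8 to 15.8 FPKM, by 0.73 on the log2 scale (limma adjusted p = 0.0118). Hes6, a member of the Hes family present in secretory precursors, fell from 321 to 211 FPKM, by 0.58 (limma adjusted p = 0.0263). Hes6 no longer passed without control tumor 1 or 5 or Villin-Wls cKO tumor 3 or 5, nor with tumors rescaled to the same FPKM sum, and neither gene passed without Villin-Wls cKO tumors 2 and 3. Atoh1, the factor of all secretory cells, was at 1.82 to 10.3 FPKM in control and 10.5 to 17.4 FPKM in Villin-Wls cKO tumors, a difference of 1.29 that did not pass (limma adjusted p = 0.073). Isl1, which acts in several enteroendocrine subtypes, did not pass either, at -0.45 (limma adjusted p = 0.645).

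Genes of granule content and processing moved in both directions. Of 9 in the table, 3 were higher and 6 lower (median difference -0.14), and 2 passed in each direction. Pam, the enzyme that amidates peptide hormones, was between 154 and 204 FPKM in control and between 55.0 and 84.1 FPKM in Villin-Wls cKO tumors, without overlap, and fell by 1.24 (standard error 0.12, limma adjusted p = 0.00018), with the caveat that the name B230216N24Rik carries the same values. Slc18a1, the vesicular monoamine transporter of enterochromaffin cells, was at 32.4, 40.4, 29.1, 31.4 and 28.3 FPKM in control tumors 1 to 5 and at 18.8, 14.1, 10.2, 17.2 and 13.9 FPKM in Villin-Wls cKO tumors 1 to 5. It fell by 1.09 (standard error 0.15, limma adjusted p = 0.00166), and like Cadps it was high in control tumors 1 and 4, where Chga and Tph1 were low. Pam and Slc18a1 passed in all 21 other fits.

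The 2 that rose were Pcsk1, a proprotein convertase that cuts prohormones, and Ptprn2, a granule membrane protein. Pcsk1 rose from 0.346 to 0.979 FPKM, by 0.56 (limma adjusted p = 0.02), and did not pass without control tumor 4. Ptprn2 rose from 1.91 to 4.37 FPKM, by 0.96 (limma adjusted p = 0.0412), its groups overlapped, and it passed in 10 of 20 other fits, being lost without control tumor 1, 2 or 4 or Villin-Wls cKO tumor 1, 3, 4 or 5. Neither passed without Villin-Wls cKO tumors 2 and 3.

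Among genes of granule exocytosis, the list to which Cadps belongs, 21 others were in the table, 9 higher and 12 lower with a median difference of -0.08. In limma, 3 rose and 2 fell at an adjusted p under 0.05. Rab27a and Rab27b, small GTPases that dock granules, rose from 4.39 to 12.4 FPKM and from 10.7 to 17.6 FPKM, by 1.26 and 0.67 (limma adjusted p = 0.0181 and 0.00518), and the name Gm27186 carries the same values as Rab27a. Sytl2, a Rab27 effector, rose from 9.32 to 15.2 FPKM, by 0.65 (limma adjusted p = 0.0313), but did not pass without control tumor 1 or 4 or Villin-Wls cKO tumor 1, 4 or 5. Kif1a, a motor that carries dense-core granules, fell from 6.21 to 3.21 FPKM, by 0.77 (limma adjusted p = 0.00422), and Stx1a, a membrane fusion SNARE, fell from 22.2 to 12.7 FPKM, by 0.75 (limma adjusted p = 0.0047). Beside Cadps, at -4.21, the lowest difference of the other 21 was thus that of Kif1a, at -0.77. Without Villin-Wls cKO tumors 2 and 3, Rab27a did not pass.

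Of the list of receptors and channels through which enteroendocrine cells sense their surroundings, 4 of 18 genes were in the table. None of the 4 was lower, the median difference was 0.79, and 1 passed. Ffar4, a receptor for long-chain fatty acids that other epithelial cells also express, rose from 10.8 to 25.4 FPKM, by 1.20 (limma adjusted p = 0.0272), but did not pass without control tumor 4 or Villin-Wls cKO tumor 4 or 5.

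**Figure D4:**
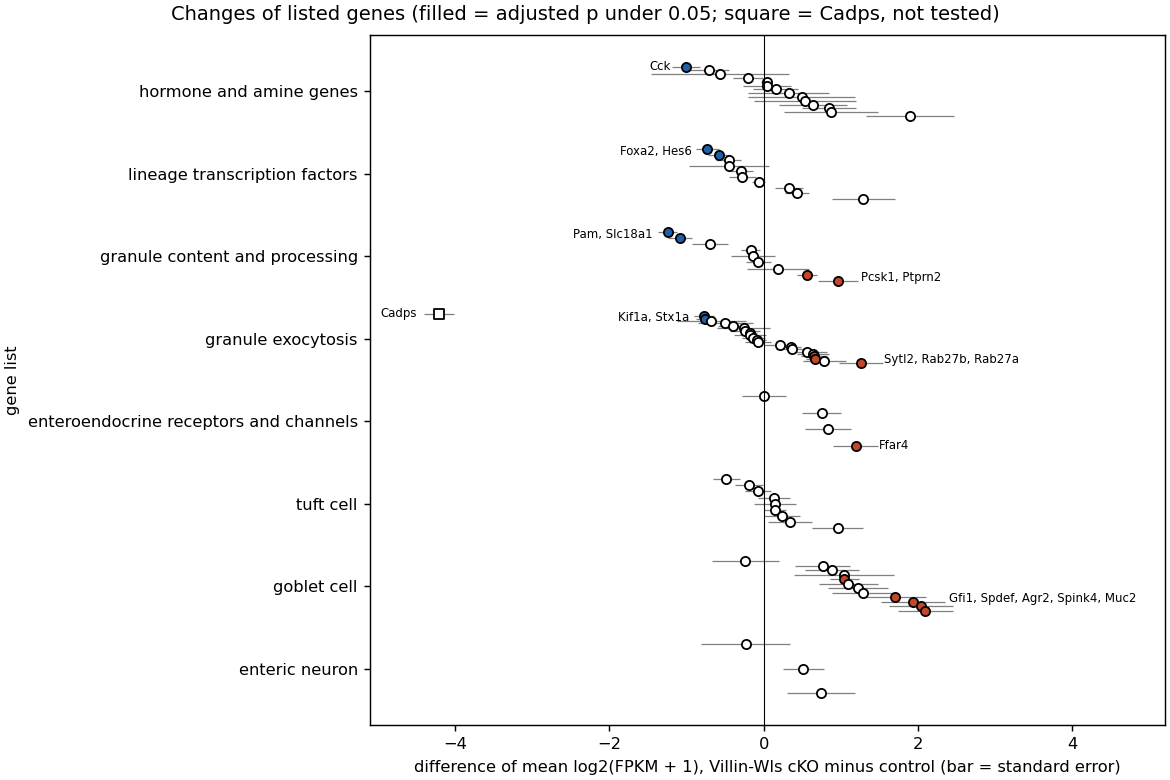
Difference of mean log2(FPKM + 1), Villin-Wls cKO minus control, for each gene of 8 lists tested, with bars for the standard error, filled points for an adjusted p under 0.05 in limma (red higher, blue lower, names beside them) and a square for Cadps, which was not tested. Cadps lies at -4.21, and every other gene of the 5 enteroendocrine lists lies between -1.24 and 1.90.

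Markers of other cells that could share these genes were read in the same way. For comparison, 10.9% of all genes tested passed and 25.7% had an unadjusted p under 0.05 in limma. Of 12 goblet cell genes, the secretory sister lineage, 11 were higher with a median difference of 1.16, and 5 rose in limma (Muc2, Spink4, Agr2, Spdef and Gfi1), the call of Spdef being lost without control tumor 4 or Villin-Wls cKO tumor 3 or 5. Without Villin-Wls cKO tumors 2 and 3, 3 of them passed, and Spink4 and Spdef did not (limma adjusted p = 0.0567 and 0.0766). Of 9 tuft cell genes in the table, 0 passed in limma and 2 had an unadjusted p under 0.05. All 13 pan-epithelial genes were higher, with a median difference of 0.27, and 1 passed, Krt20, while the mean log2(FPKM + 1) over the list ranged from 8.04 to 8.49 in control and from 8.46 to 8.93 in Villin-Wls cKO tumors. In this list Krt19 carries the same values as the names Krt13 and Krt17. Of the enteric neuron list, whose cells also express Cadps, Nts, Cck and Tac1, 4 of 17 genes were in the table and their summed level was 9.40 to 27.1 FPKM in control and 14.6 to 28.5 FPKM in Villin-Wls cKO tumors. The defining marker Elavl4 was not analysed here. Of 3 enteric glia genes in the table, all 3 were lower and 1 fell in limma, Ngfr, a neurotrophin receptor gene also used by fibroblasts, from 5.83 to 1.26 FPKM without overlap (limma adjusted p = 0.0019). Of 9 mast cell genes, 3 were higher and 6 lower, with Mcpt1 and Mcpt2, both lower, carrying the same values. Ms4a2 fell from 1.23 to 0.149 FPKM (limma adjusted p = 0.0242), a call lost without control tumor 2, 4 or 5 or Villin-Wls cKO tumor 3 or 4. Neither a neuronal nor an epithelial share in the level of Cadps was tested.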

How the data were processed

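Messenger RNA of 10 AOM/DSS tumors was sequenced from stranded libraries, 5 per group. The submitters' processing notes name FastQC, TopHat2 2.1.1, Cufflinks 2.2.1, Cuffdiff and the build GRCm38.p5. The authors deposited FPKM per gene name and tumor as Cuffdiff estimated them; the annotation and any use of strand in counting are not given in the sources used here. All columns were assigned by their labels. Of the 16875 names, 2419 share all values with another name, as overlapping genes do.

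Starting from these FPKM, limma 3.58.1 in R 4.3.3 was fitted to log2(FPKM + 1) for all 16757 genes whose FPKM averaged 0.5 or more over the tumors, with a variance trend, no covariate and a two-sided Benjamini-Hochberg adjusted p under 0.05, and was tested on simulated data. Summaries and figures used matplotlib 3.10.9, scipy 1.17.1, pandas 2.3.3 and numpy 2.4.6 in Python 3.11.15. Positions are those of GENCODE M21 and promoters those of RefSeq.

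The genes, the gene lists and the motif were chosen with earlier results of these data known. Named are the 10 genes and Cadps2, the genes of each list past the threshold (at most 6 per list, those with the largest difference), genes of the table near Cadps, and the 5 genes most like Chga and like Cadps. Nmb, Krt19, Mcpt1 and Mcpt2 are named because they share their values with another name. Tac1, Tph1, Ppy, Atoh1, Isl1, Resp18, Rph3al, Fcgbp and Zg16 were named after their values were seen. Alternatives were another pseudocount, 3 other scalings, other filters, 3 other variance fits, a replicate block, each tumor left out in turn, Villin-Wls cKO tumors 2 and 3 left out, and ratios of means and medians. Same-numbered tumors showed little shared deviation (correlations 0.064, -0.087, 0.063, 0.1 and 0.16). The labels do not say whether the numbers pair the tumors, and such correlations cannot settle it.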

Additional observations from a re-analysis of the deposited data

Results flagged for a closer look

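Of 16 groups examined (8 genes in each genotype), 1 held a tumor far from the others. Villin-Wls cKO tumor 2 held 0.487 FPKM of Cadps (0.4869), where the other 4 Villin-Wls cKO tumors held 0.0162 to 0.129 FPKM, and its gap to the next tumor made up 0.724 of the range of the group on the log2(FPKM + 1) scale. About 1 in 20 groups is expected to hold such a gap by chance. The same tumor was the lowest of its group in Chga, Chgb, Pyy, Gcg and Insl5 and the highest in Sct and Nts, and it was 1 of the 2 tumors with Krt5. The other tumor with Krt5, Villin-Wls cKO tumor 3, held 6.71 FPKM of Chga.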

How the results depend on the processing

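The lineage genes stayed short of the threshold in every fit but one: without Villin-Wls cKO tumor 2, 1 of the 7 passed (Nts), so that leaving out each tumor in turn gave 0 to 1. The listed genes called ranged from 9 to 16 and all genes called from 1229 to 1986 over these fits. Without Villin-Wls cKO tumors 2 and 3, all genes called numbered 1101 and listed genes called 8. With a replicate block the counts were 1627 of all genes, 11 listed genes and 0 lineage genes. In that fit Ptprn2, Pcsk1 and Sytl2 were lost and Tac1 passed (limma adjusted p = 0.0143). Whether the tumor numbers pair the tumors is not known. Tac1 also passed with equal FPKM sums and with quality weights (limma adjusted p = 0.0469 and 0.045).

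Differences near 0 changed sign. That of Sct was -0.035 with tumor quality weights, -0.089 without Villin-Wls cKO tumors 2 and 3, -0.47 as log2 ratio of medians, and between -0.15 and 0.20 with each tumor left out (-0.019 without control 3, -0.12 without control 4, -0.15 without Villin-Wls cKO 2, -0.083 without Villin-Wls cKO 5). That of Pyy was 0.047 without Villin-Wls cKO tumors 2 and 3 and -1.07 to 0.11 with each tumor left out (0.11 without Villin-Wls cKO 2). Ptprg was -0.017 without Villin-Wls cKO tumors 2 and 3, and Tph1 was -0.044 to 0.28 with each tumor left out, the lowest without control 1. As log2 ratios of medians Chga was -0.48 and Insl5 -0.11. The causes were not tested. Cadps lay between -9.23 and -3.80 over all alternatives, a range that mixes scales. The value of -9.23 is a log2 ratio of medians without a pseudocount, and that of -3.80 came with equal FPKM sums. With each tumor left out, Cadps lay between -4.37 and -4.12.

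The scaling set the balance of calls: 56.3% of all genes called were higher, 77.1% with equal FPKM sums and 44.3% with quantile normalization, and equal sums moved the median gene to 0.10. The depth is unknown, so that the counting error of levels below 1 FPKM cannot be stated.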
